A study of Homo sapiens with 6 samples.

Results

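ANKRD37, PPFIA4, AK4, FAM162A, TMEM45A, WSB1, ERO1A, CITED2, MXI1 and VLDLR are genes linked to hypoxia-inducible factor (HIF) that lie outside the better known glycolytic, angiogenic and mitophagy targets. They were picked by symbol, with values of the comparison between PDBAG1 and vehicle already known, and all 10 were found among the 17631 protein-coding genes listed. The data were 6 RNA-seq libraries of MDA-MB-231, a human cell line from a triple-negative breast tumour grown here in DMEM with serum: 3 from cells given vehicle and 3 from cells given 30 µM PDBAG1, each for 24 h. PDBAG1 is a synthetic peptide derived from GPD1 and joined to a cell-penetrating sequence, and the study reported that it binds the mitochondrial protein C1QBP. The labels number the libraries 1 to 3 within each treatment and do not say whether they came from separate cultures, so p values measure the spread between these libraries, which may be technical. Values are in TPM, a unit scaled for transcript length and to the same sum in each library, which keeps no record of sequencing depth.

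HIF is a transcription factor with an oxygen-labile alpha subunit (HIF1A or EPAS1) and a stable partner, ARNT. With oxygen, prolyl hydroxylases mark the alpha subunit for the VHL ubiquitin ligase. Without it, the dimer accumulates and binds a short core sequence, ACGTG or GCGTG, near its target genes. The targets act in many places: in the endoplasmic reticulum (ERO1A), in mitochondria (AK4, FAM162A), at the cell surface (VLDLR), in the ubiquitin system (WSB1) and in the nucleus as brakes on HIF or MYC (CITED2, MXI1). HIF activity can also rise in normal oxygen when hydroxylation fails. From RNA-seq enrichment, HIF-1 alpha protein and a hypoxia probe, the study reported that PDBAG1 raised a hypoxia response in normal oxygen. For glycolysis-related HIF target genes in MDA-MB-231 it reported that expression rose only slightly or even fell.

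All 10 genes were higher with PDBAG1, and none had a PDBAG1 library within or under the range of its vehicle libraries. Over the 12582 genes tested, 27.2% were separated in this direction and 20.2% in the other. A gene was tested when 3 or more libraries reached a TPM of 1, and all 10 genes passed this filter. PPFIA4, ANKRD37 and VLDLR rose furthest and were among the least abundant of the 10, whereas CITED2, the most abundant, moved least. The median log2 fold change of the 10 genes (log2 change from here on), estimated on the log2(TPM + 1) scale with limma over all genes tested, was 0.66, against 0.03 for all genes tested. At a Benjamini-Hochberg adjusted p under 0.05 all 10 were called higher, beside 21.7% of genes tested called higher, 15.9% called lower and 37.6% called in either direction. This balance depended on the scaling: 2736 genes were higher and 2000 lower in TPM as deposited, 2455 higher and 2741 lower under median-of-ratios scaling, and 2404 higher and 2742 lower under quantile normalization. CITED2 was the gene of the 10 that lost its call, under median-of-ratios scaling and without vehicle replicate 1, vehicle replicate 3, PDBAG1 replicate 2 or PDBAG1 replicate 3, where 9 of the 10 were called. Of the 10, 7 were also at least 1.5-fold higher, beside 2.86% of genes tested, and 0.477% were lower by as much. The count of 7 became 6 under median-of-ratios scaling, under quantile normalization and without vehicle replicate 2. The 10 genes were chosen with this contrast in view, so these values describe them and test nothing. On this scale the change of a gene with low TPM comes out smaller than its ratio of TPM.

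**Figure D1:**
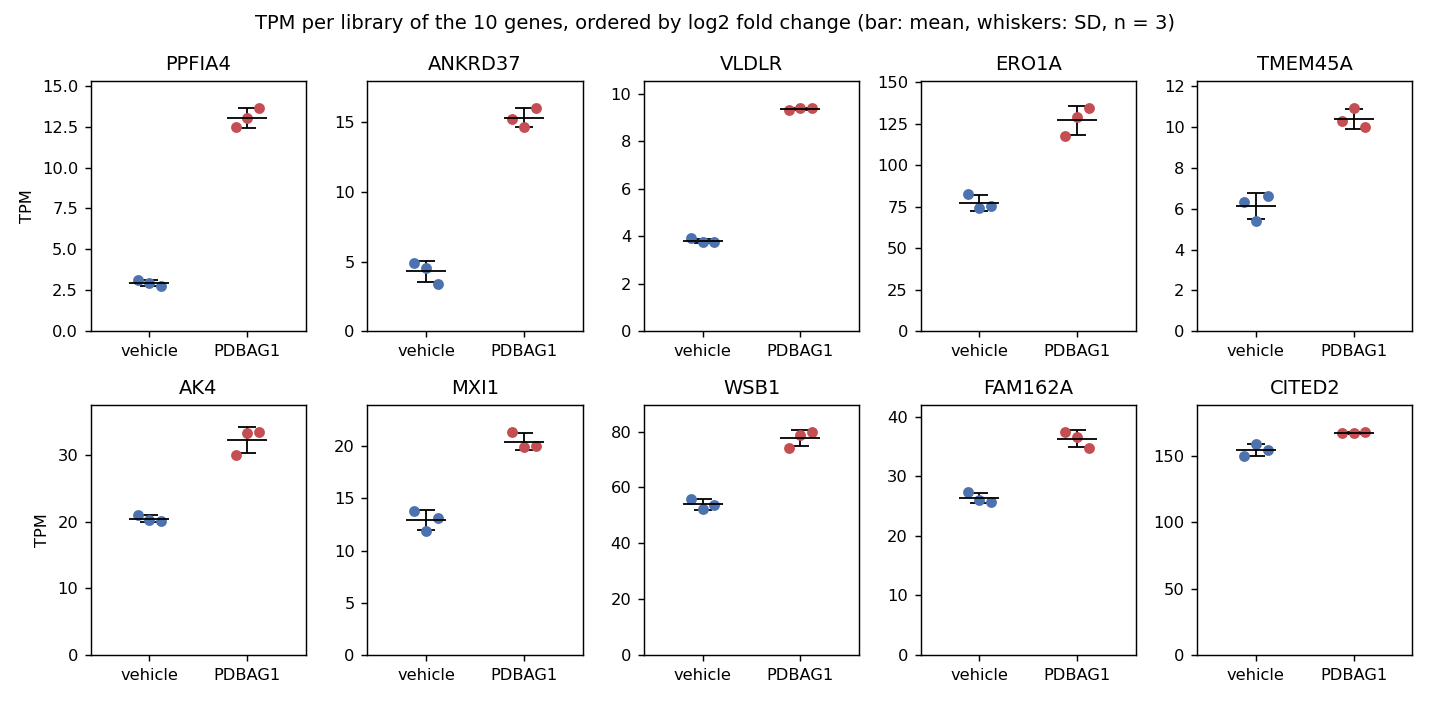
TPM of the 10 genes (vertical axes, linear from 0, a scale for each gene) in 3 vehicle and 3 PDBAG1 libraries, with 1 point per library, a bar at the mean and whiskers of 1 SD. In each gene the 3 PDBAG1 points lie above the 3 vehicle points, with the widest separation for PPFIA4 and the narrowest for CITED2.

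The promoters of the 10 genes were searched first for ACGTG, a form of the core that HIF binds. The other form, GCGTG, was added in a wider search described below. RefSeq windows from 250 bases before to 50 bases after each annotated start site (GRCh38.p14) gave 17 windows for the 10 genes, since AK4, MXI1 and CITED2 have several starts. Both strands were read, so CACGT counts as a match, and a CACGTG, the E-box bound by MYC and MAX, holds a match on each strand. A match was present in 9 of the 17 windows and for 8 of the 10 genes, beside 25.4% of the 15063 windows and 32.4% of the 10296 tested genes for which windows were matched. For 42 of the other HIF-linked genes described below, the share of genes with a match was 66.7%. A CACGTG was present for 5 of the 10 genes, for 12.6% of tested genes and for 28.6% of the 42 other HIF-linked genes. Sequences of 5 windows follow, in lower case with ACGTG and CACGT in capitals. PPFIA4 and ANKRD37 had the largest rises, CITED2 had the smallest and also held a match, and VLDLR and TMEM45A rose with no ACGTG or CACGT in the window.
PPFIA4 (chr1:203026241-203026540, plus strand): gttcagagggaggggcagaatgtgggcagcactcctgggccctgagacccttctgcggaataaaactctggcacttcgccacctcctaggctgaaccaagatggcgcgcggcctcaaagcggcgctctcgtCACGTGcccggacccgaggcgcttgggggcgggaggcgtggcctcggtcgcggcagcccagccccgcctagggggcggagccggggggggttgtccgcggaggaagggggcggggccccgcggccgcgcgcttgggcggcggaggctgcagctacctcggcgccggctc
ANKRD37 (chr4:185396591-185396890, plus strand): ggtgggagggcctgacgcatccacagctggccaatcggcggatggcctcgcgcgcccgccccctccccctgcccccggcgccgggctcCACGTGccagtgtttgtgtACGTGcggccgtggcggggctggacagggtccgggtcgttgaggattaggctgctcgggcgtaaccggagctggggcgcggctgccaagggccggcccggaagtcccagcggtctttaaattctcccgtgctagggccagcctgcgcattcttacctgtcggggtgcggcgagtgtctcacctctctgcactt
CITED2 (chr6:139374599-139374898, minus strand): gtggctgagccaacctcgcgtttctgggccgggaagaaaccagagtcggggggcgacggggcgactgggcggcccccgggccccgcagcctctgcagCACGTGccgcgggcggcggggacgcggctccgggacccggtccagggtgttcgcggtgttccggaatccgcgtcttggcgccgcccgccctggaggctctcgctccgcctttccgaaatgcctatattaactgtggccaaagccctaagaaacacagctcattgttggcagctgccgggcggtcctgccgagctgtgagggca
VLDLR (chr9:2621537-2621836, plus strand): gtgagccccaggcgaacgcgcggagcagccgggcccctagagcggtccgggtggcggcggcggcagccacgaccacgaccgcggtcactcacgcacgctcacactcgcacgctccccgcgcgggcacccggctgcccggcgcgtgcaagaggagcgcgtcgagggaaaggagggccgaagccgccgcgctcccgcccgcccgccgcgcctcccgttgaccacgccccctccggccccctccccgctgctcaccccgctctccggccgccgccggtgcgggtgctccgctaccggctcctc
TMEM45A (chr3:100492369-100492668, plus strand): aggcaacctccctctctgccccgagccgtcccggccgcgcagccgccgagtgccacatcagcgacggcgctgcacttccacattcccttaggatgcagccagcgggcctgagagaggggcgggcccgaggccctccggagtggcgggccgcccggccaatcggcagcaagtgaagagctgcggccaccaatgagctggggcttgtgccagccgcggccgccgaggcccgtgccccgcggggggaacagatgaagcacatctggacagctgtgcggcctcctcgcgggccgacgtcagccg
The matches formed 12 separate stretches, of which 6 were a CACGTG and 10 began before the RefSeq start site. By the GENCODE positions given below, the windows of ANKRD37, ERO1A and VLDLR lie inside the gene. So do some windows of AK4, MXI1 and CITED2. Counted from the RefSeq start site, the CACGTG of ANKRD37 began at -162 and a further match at -143. The CACGTG began at -119 in PPFIA4, at -153 in CITED2 and at -58 in WSB1. The wider search, for either form of the core (ACGTG or GCGTG) on both strands, matched 88.2% of the 17 windows. It matched 60.3% of the windows of tested genes. In this search the VLDLR window held 5 matches and the TMEM45A window held 0. These matches describe the letters in the windows and are not binding sites. Because the 10 genes were picked as linked to HIF, a share above that of all genes may follow from the choice. Whether the matches have a part in the rises was not tested.

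**Figure D2:**
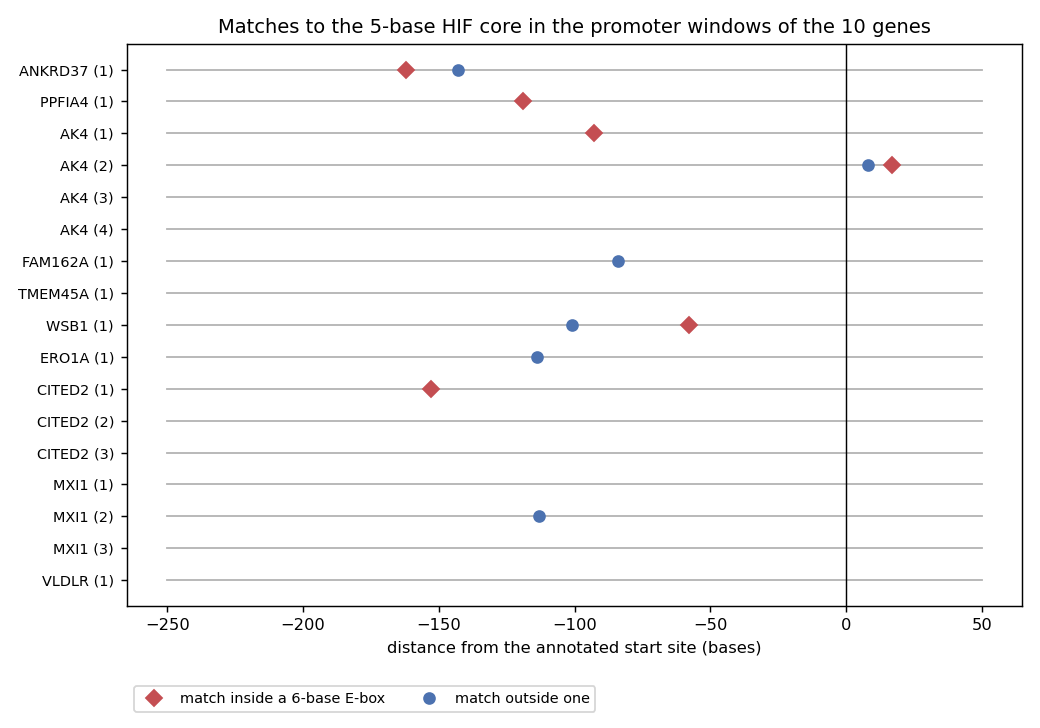
Matches to ACGTG, a form of the HIF core, on either strand along the 17 RefSeq promoter windows of the 10 genes. The horizontal axis gives the distance from the annotated start site in bases. Each row is a window, and the number in brackets tells apart windows of 1 gene. Red diamonds are matches inside a CACGTG and blue circles are matches outside one, and 10 of the 12 lie before the RefSeq start.

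PPFIA4 had the largest change. It encodes liprin-alpha-4, a scaffold protein of the family that organises presynaptic active zones and cell adhesion sites (chromosome 1, 203026491 to 203078740, plus strand, GRCh38, GENCODE v44). Its TPM was 3.15, 2.96 and 2.77 with vehicle and 12.45, 13.04 and 13.65 with PDBAG1. The groups lay far apart, and the ratio of the mean TPM was 4.41. This gave a log2 change of 1.83 (standard error 0.08). Of the 4 liprin-alpha genes, PPFIA4 made up 4.60% ± 0.38 of the summed TPM with vehicle and 16.6% ± 0.51 with PDBAG1 (SD, n = 3 per treatment). PPFIA1, which gave most of that sum, was at 57.8 ± 4.79 and 60.9 ± 4.13 TPM (SD, n = 3 per treatment; log2 change 0.08, limma adjusted p = 0.391). PPFIA2 and PPFIA3, both near the expression limit, had log2 changes of 0.25 (limma adjusted p = 0.146) and 0.23 (limma adjusted p = 0.0857), and without PDBAG1 replicate 1 PPFIA2 passed the threshold at 0.36. Among liprin relatives and partners as a whole, 4 of the 10 that could be tested were higher and none was lower, beside 21.7% and 15.9% of all genes tested. The largest of these rises were in PPFIBP1 (liprin-beta-1), from 19.9 ± 1.42 to 29.6 ± 1.85 TPM (SD, n = 3 per treatment; log2 change 0.55, limma adjusted p = 4.52e-05), in the receptor phosphatase gene PTPRS, with a log2 change of 0.54, and in GIT1, with 0.26.

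ANKRD37, which encodes a small protein of ankyrin repeats, followed PPFIA4 (chromosome 4, 185396021 to 185400628, plus strand). Its TPM was 4.92, 4.52 and 3.42 in the vehicle libraries and 15.24, 14.68 and 16.03 in the PDBAG1 libraries. The vehicle libraries spread more than in the other low genes, with replicate 3 lowest, but all lay far below the PDBAG1 libraries. The log2 change was 1.64 (standard error 0.10), and its gap of 0.19 to PPFIA4 had a standard error of 0.13. The residual spread of ANKRD37 was at percentile 90.9 of all genes tested, that is, among the noisier genes. UFSP2, a protease gene of the UFM1 system on the opposite strand, overlaps the end of ANKRD37, and whether counting used the strand is not given in the sources used here. UFSP2 rose less, from 26.1 ± 1.81 to 31.9 ± 2.51 TPM (SD, n = 3 per treatment; log2 change 0.28, limma adjusted p = 0.00688), and reads shared by this pair cannot be told apart here.

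VLDLR, the receptor for very low density lipoprotein and reelin, was the third gene to rise more than 2-fold (chromosome 9, 2621182 to 2660056, plus strand). Vehicle libraries were at 3.91, 3.76 and 3.76 TPM and PDBAG1 libraries at 9.31, 9.38 and 9.40 TPM. The 3 libraries of each treatment nearly coincided, which put the residual spread at percentile 1.1 of all genes tested. Its log2 change was 1.11 (standard error 0.08). LRP8, the other reelin receptor, was at 27.0 ± 1.30 and 27.9 ± 2.12 TPM (SD, n = 3 per treatment; log2 change 0.05, limma adjusted p = 0.619). MYLIP, the ubiquitin ligase also called IDOL that sends VLDLR and LRP8 for degradation, fell from 9.69 ± 0.26 to 4.76 ± 0.31 TPM (SD, n = 3 per treatment; log2 change -0.89, limma adjusted p = 2.35e-06). LRP1, a larger receptor of the same family, rose by 0.82 on the log2 scale (limma adjusted p = 8.09e-06). Of the 12 tested relatives and partners of VLDLR, 4 were higher, 1 was lower and 7 did not pass. Over all genes tested, 21.7% were higher and 15.9% lower.

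ERO1A, the oxidase that recharges protein disulphide isomerase in the endoplasmic reticulum, was the second most abundant of the 10 genes (chromosome 14, 52639915 to 52695900, minus strand). It was at 82.95, 74.13 and 75.14 TPM with vehicle and at 117.6, 129.2 and 134.6 TPM with PDBAG1. PDBAG1 replicate 1 was the lowest treated library and still exceeded every vehicle library. The log2 change was 0.71 (standard error 0.06). Its paralogue ERO1B was at 6.01 ± 0.82 and 6.71 ± 0.19 TPM (SD, n = 3 per treatment; log2 change 0.14, limma adjusted p = 0.269), and ERO1A made up 92.4% to 93.5% of the TPM of the pair in the vehicle libraries and 94.7% to 95.1% in the PDBAG1 libraries. The other genes of oxidative folding moved little and in both directions: of 13 tested, 3 were higher, 4 were lower and 6 did not pass, with none at 1.5-fold. Over all genes tested, 21.7% were higher and 15.9% lower. P4HB, the main isomerase oxidised by ERO1A, rose from 566 ± 11.3 to 645 ± 11.1 TPM (SD, n = 3 per treatment; log2 change 0.19, limma adjusted p = 0.000663), and PDIA3 rose by 0.16 on the log2 scale. TXNDC5 fell from 274 ± 6.68 to 234 ± 8.56 TPM (SD, n = 3 per treatment; log2 change -0.23, limma adjusted p = 0.000632). The peroxidase genes GPX7 and GPX8 had log2 changes of -0.42 and -0.17 (limma adjusted p = 0.0147 and 0.0264). GPX7 was a low gene, at a mean of 4.33 TPM with vehicle and 3 TPM with PDBAG1. Its residual spread was at percentile 93.8 of all genes tested. GPX7 did not pass without vehicle replicate 2 (-0.37), vehicle replicate 3 (-0.38) or PDBAG1 replicate 3 (-0.32), or without the filter on low values. GPX8 did not pass without vehicle replicate 1 (-0.17), vehicle replicate 3 (-0.16), PDBAG1 replicate 1 (-0.14) or PDBAG1 replicate 2 (-0.16).

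Both mitochondrial genes rose moderately. AK4, a nucleotide kinase of the mitochondrial matrix (chromosome 1, 65147549 to 65232145, plus strand), was at 21.09, 20.32 and 20.12 TPM with vehicle and 30.12, 33.40 and 33.60 TPM with PDBAG1. PDBAG1 replicate 1 was the lowest treated library, and the groups did not overlap. AK4 thus had a log2 change of 0.63 (standard error 0.06). The annotation holds several named copies of AK4, AK4P1 to AK4P6, and how reads shared with them were counted is not given in the sources used here. Of 6 other adenylate kinase genes tested, none was called higher and 2 were called lower, beside 21.7% and 15.9% of all genes tested. AK6 fell from 60.5 ± 3.19 to 47.1 ± 4.32 TPM (SD, n = 3 per treatment; log2 change -0.36, limma adjusted p = 0.000877). AK3, the matrix enzyme most closely related to AK4, had a log2 change of 0.07 (limma adjusted p = 0.392), AK1 one of 0.03 (limma adjusted p = 0.704) and AK5 one of 0.09 (limma adjusted p = 0.579). AK1 turned to -0.035 without PDBAG1 replicate 1 and to -0.0081 under median-of-ratios scaling, and AK5 to -5e-04 under quantile normalization. AK9 was at 0.24 (limma adjusted p = 0.0549) and passed without PDBAG1 replicate 1 (0.29). AK7 and AK8 were too low to test.

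FAM162A, a mitochondrial membrane protein linked to cell death in hypoxia (chromosome 3, 122384161 to 122412334, plus strand), was at 27.37, 25.96 and 25.76 TPM with vehicle. The PDBAG1 libraries were at 37.55, 36.66 and 34.79 TPM, above every vehicle library. The log2 change of 0.45 (standard error 0.06) was under the 1.5-fold limit. Its paralogue FAM162B was listed at 0 in 5 of the 6 libraries. WDR5B, which overlaps FAM162A on the opposite strand, was at 4.59 ± 0.16 and 4.46 ± 0.28 TPM (SD, n = 3 per treatment; log2 change -0.04, limma adjusted p = 0.779).

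TMEM45A, a membrane protein of the secretory pathway linked to chemoresistance in hypoxia (chromosome 3, 100492619 to 100577444, plus strand), was at 6.33, 5.41 and 6.62 TPM with vehicle and 10.30, 10.94 and 9.99 TPM with PDBAG1. The groups were separate, and the log2 change was 0.68 (standard error 0.09). Its paralogue TMEM45B was as abundant with vehicle and also rose, from 5.98 ± 0.65 to 8.32 ± 0.85 TPM (SD, n = 3 per treatment; log2 change 0.42, limma adjusted p = 0.00449). TMEM45A made up 50.6% ± 0.53 of the pair with vehicle and 55.6% ± 3.56 with PDBAG1 (SD, n = 3 per treatment), and PDBAG1 replicate 2 stood highest at 59.7%.

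WSB1 encodes the substrate receptor of an elongin and cullin ubiquitin ligase, whose known substrates include VHL and HIPK2 (chromosome 17, 27294076 to 27315926, plus strand). It was at 55.97, 52.14 and 53.82 TPM with vehicle and at 74.30, 78.71 and 80.03 TPM with PDBAG1. The treated libraries all exceeded the controls, and the log2 change was 0.52 (standard error 0.05), under the 1.5-fold limit. The paralogue WSB2 was at 123 ± 4.91 and 118 ± 5.92 TPM (SD, n = 3 per treatment; log2 change -0.06, limma adjusted p = 0.371), and it passed as lower under median-of-ratios scaling (-0.10). WSB1 thus went from 30.5% ± 0.21 to 39.6% ± 0.42 of the TPM of the pair (SD, n = 3 per treatment). Of 8 tested paralogue, partner and substrate genes, 1 was higher, 1 was lower and 6 did not pass. Over all genes tested, 21.7% were higher and 15.9% lower. VHL rose from 38.5 ± 2.63 to 45.5 ± 2.91 TPM (SD, n = 3 per treatment; log2 change 0.23, limma adjusted p = 0.0107) and did not pass without vehicle replicate 3 (0.20). ELOC, the elongin C gene, fell from 119.1, 121.4 and 122.2 TPM to 109.3, 111.6 and 108.3 TPM (log2 change -0.14, limma adjusted p = 0.0155) and did not pass without vehicle replicate 2 (-0.14) or vehicle replicate 3 (-0.13).

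MXI1, a repressor that competes with MYC for MAX (chromosome 10, 110207605 to 110287365, plus strand), was at 13.83, 11.89 and 13.11 TPM with vehicle and 21.40, 19.94 and 19.97 TPM with PDBAG1. The groups did not overlap, and the log2 change was 0.62 (standard error 0.07). MXD1 and MXD4, repressors of the same family, rose by 0.51 (limma adjusted p = 0.000832) and 0.47 (limma adjusted p = 0.000313) on the log2 scale, and MNT, another MAX-binding repressor, by 0.45 (limma adjusted p = 0.000426). MXD3, the most abundant of the family, was at 49.7 ± 2.53 and 45.8 ± 0.71 TPM (SD, n = 3 per treatment; log2 change -0.11, limma adjusted p = 0.109). Over the 12 tested genes of the MAX network other than MXI1, 5 were higher, none was lower and 7 did not pass. The shares over all genes tested were 21.7% higher and 15.9% lower. MXD3 passed as lower under median-of-ratios scaling (-0.15) and quantile normalization (-0.13). MYC and MAX, named after their values were seen, did not pass, with log2 changes of -0.06 (limma adjusted p = 0.274) and 0.10 (limma adjusted p = 0.127). MXI1 made up 15.8% ± 1.32 of the TPM summed over MXI1, MXD1, MXD3 and MXD4 with vehicle and 21.7% ± 0.82 with PDBAG1 (SD, n = 3 per treatment).

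CITED2, which competes with HIF for the coactivators EP300 and CREBBP and so acts as a brake on HIF, changed least (chromosome 6, 139371807 to 139374648, minus strand). It was at 150.2, 158.7 and 154.2 TPM with vehicle and 166.9, 167.4 and 168.4 TPM with PDBAG1. The highest vehicle library and the lowest PDBAG1 library were close but did not overlap. The log2 change of 0.12 (standard error 0.04) lay at percentile 65.8 of all genes tested, whereas each of the other 9 genes lay at percentile 94.1 or above. Under median-of-ratios scaling it was 0.077. CITED4, a less abundant relative, rose from 3.47 ± 0.22 to 5.33 ± 0.33 TPM (SD, n = 3 per treatment; log2 change 0.50, limma adjusted p = 0.000848), and CITED1 was at 2.10 ± 0.80 and 1.65 ± 0.36 TPM (SD, n = 3 per treatment; log2 change -0.20, limma adjusted p = 0.369). CITED2 made up 96.5% ± 0.45 of the family's TPM with vehicle and 96.0% ± 0.23 with PDBAG1 (SD, n = 3 per treatment). Of 9 tested relatives and partners 5 were higher and none was lower, beside 21.7% and 15.9% of all genes tested. The largest rise was in EPAS1, which encodes HIF-2 alpha, from 35.2 ± 0.95 to 52.7 ± 3.36 TPM (SD, n = 3 per treatment; log2 change 0.57, limma adjusted p = 5.42e-06). ARNT rose by 0.32 on the log2 scale (limma adjusted p = 0.00140). HIF1A, named after its value was seen, was another of the 5, with a log2 change of 0.13 (limma adjusted p = 0.0423). It did not pass without vehicle replicate 2 (0.11), vehicle replicate 3 (0.11), PDBAG1 replicate 2 (0.13) or PDBAG1 replicate 3 (0.10), under median-of-ratios scaling (0.093) or without the filter on low values.

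**Figure D3:**
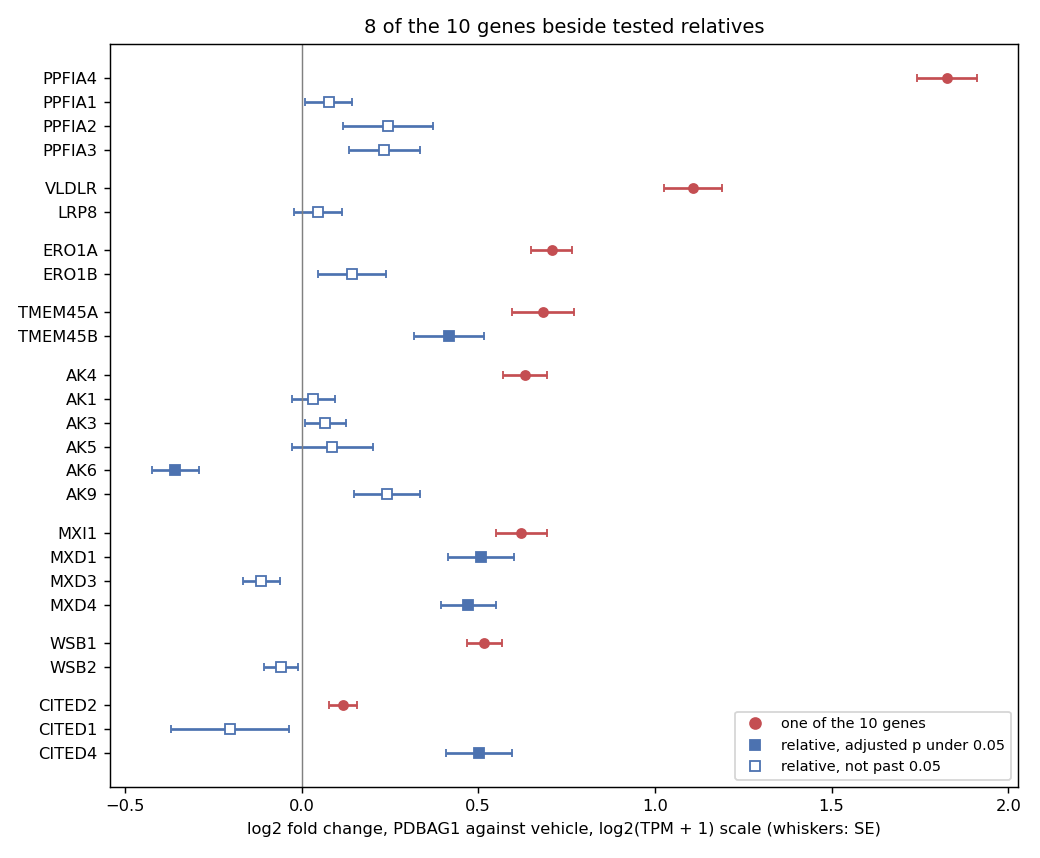
Log2 changes of 8 of the 10 genes (red circles) beside tested relatives (blue squares, filled where the limma adjusted p was under 0.05), on the log2(TPM + 1) scale with whiskers of 1 standard error. AK4, ERO1A, PPFIA4 and WSB1 stand apart from relatives that did not rise past the threshold, MXI1 lies near MXD1 and MXD4, and CITED2 lies below CITED4.

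Over all lists of relatives and partners together, 71 of 81 genes could be tested, of which 23 were higher and 8 were lower. These shares stand beside 21.7% and 15.9% of all genes tested, and the median log2 change was 0.10. The count of 8 lower genes was 5 without vehicle replicate 2 and 4 without vehicle replicate 3, and it was 10 under median-of-ratios scaling and 11 under quantile normalization. The tests of the relatives do not compare them with the 10 genes, whose own change was known when they were picked.

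The order of the 10 genes by level differed somewhat between treatments. With vehicle, mean TPM fell from CITED2 (154) through ERO1A (77.4), WSB1 (54.0), FAM162A (26.4), AK4 (20.5), MXI1 (12.9), TMEM45A (6.12), ANKRD37 (4.29) and VLDLR (3.81) to PPFIA4 (2.96). Neighbours in this order did not overlap between libraries, except ANKRD37 and VLDLR. With PDBAG1 the first 6 places were unchanged, ANKRD37 and PPFIA4 moved above TMEM45A, and VLDLR came last at 9.36 TPM. By log2 change the order was PPFIA4, ANKRD37, VLDLR, ERO1A, TMEM45A, AK4, MXI1, WSB1, FAM162A and CITED2. The gaps from ANKRD37 to VLDLR (0.53, standard error 0.13), from VLDLR to ERO1A (0.40, standard error 0.10) and from FAM162A to CITED2 (0.33, standard error 0.07) exceeded 2 standard errors, whereas ERO1A to FAM162A formed a run in which no neighbours were that far apart.

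**Figure D4:**
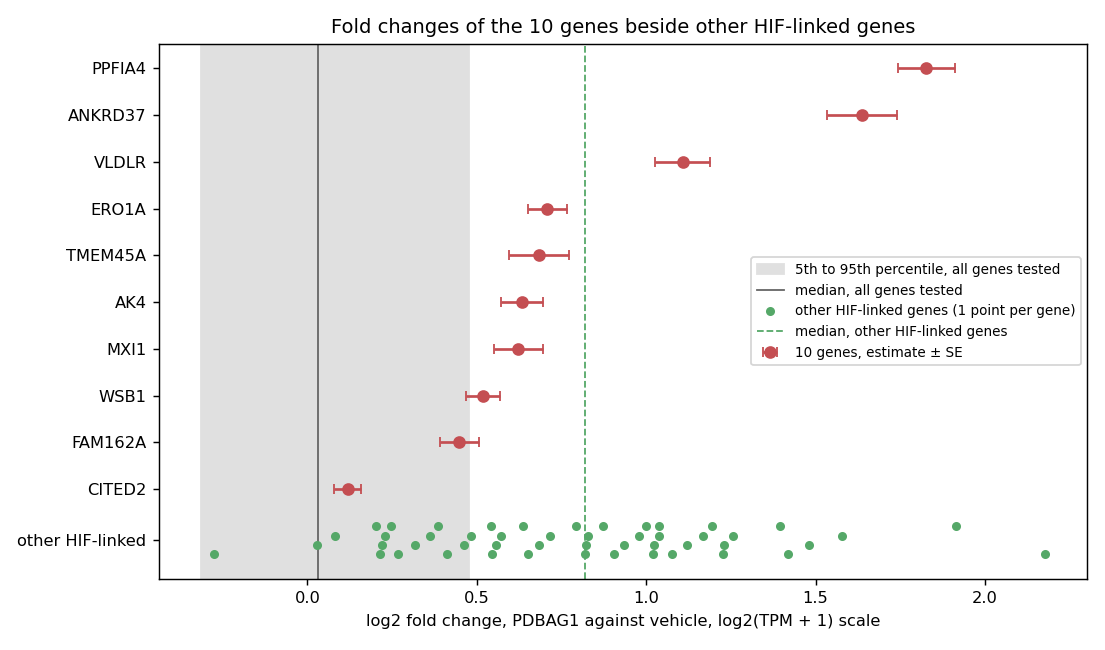
Log2 changes on the log2(TPM + 1) scale (horizontal axis) of the 10 genes, as estimates with 1 standard error, above those of 49 other HIF-linked genes with 1 point per gene. The grey band spans percentiles 5 to 95 of all genes tested, and PPFIA4, ANKRD37 and VLDLR lie to the right of the 0.82 median of the other HIF-linked genes (dashed line) while the other 7 lie to the left of it.

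A list of 50 other genes linked to HIF, in glycolysis, pH control, matrix and oxygen sensing, gave 49 that could be tested. Of these 46 were higher, 1 was lower and 2 did not pass, beside 21.7% and 15.9% of all genes tested. Of the 46, 30 rose at least 1.5-fold, beside 2.86% of all genes tested. Their median log2 change was 0.82, somewhat above the 0.66 of the 10 genes. PPFIA4 was exceeded by NDRG1 (log2 change 2.18, limma adjusted p = 2.48e-12) and BHLHE40 (1.92, limma adjusted p = 3.78e-12). ANKRD37 lay close to PFKFB4 (1.58, limma adjusted p = 6.66e-10). The order of ANKRD37 and PFKFB4 was not settled, since without vehicle replicate 3 their log2 changes were 1.51 and 1.55. The place of BHLHE40 depended on the scale, since its ratio of mean TPM was 3.85, against 4.41 for PPFIA4. With a pseudocount of 0.1 the log2 change was 2.19 for NDRG1, 2.10 for PPFIA4 and 1.94 for BHLHE40. ADM, the adrenomedullin gene, fell by 0.28 on the log2 scale (limma adjusted p = 0.000219). IGFBP3 and PPP1R3C, named after their values were seen, did not pass (log2 changes 0.03 and 0.08, limma adjusted p = 0.689 and 0.499). Both were slightly negative under quantile normalization, and so was IGFBP3 under median-of-ratios scaling. The list was written with earlier results of these libraries known and is not independent evidence of a direction.

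Genes next to the 10 on the chromosome, which had no part in their choice, were called in both directions. A tested gene with its start within 100000 bases was found for 7 of the 10 genes, and of these 7 neighbours 2 were higher, 2 were lower and 3 did not pass, beside 21.7% and 15.9% of all genes tested. LRP2BP starts 97 bases from the GENCODE start of ANKRD37, which differs from the RefSeq start used for the promoter window, on the opposite strand and without overlap (chromosome 4, 185363872 to 185395924, GRCh38, GENCODE v44). It rose from 2.36 ± 0.45 to 3.76 ± 0.62 TPM (SD, n = 3 per treatment; log2 change 0.50, standard error 0.13, limma adjusted p = 0.00732), less than ANKRD37 and near the expression limit. CCDC58 starts 930 bases from FAM162A on the opposite strand, and its values of 63.9 ± 3.64 and 67.1 ± 3.79 TPM (SD, n = 3 per treatment; log2 change 0.07, limma adjusted p = 0.358) overlapped between treatments. The other neighbours lay 11278 bases or more away. PSMC6, next to ERO1A, had a log2 change of -0.14 (limma adjusted p = 0.0162) and did not pass without vehicle replicate 1 (-0.12) or PDBAG1 replicate 2 (-0.14). JAK1, next to AK4, rose by 0.29 on the log2 scale (limma adjusted p = 0.00241), TOMM70, next to TMEM45A, fell by 0.22 (limma adjusted p = 0.00795), and TMEM183A and SMNDC1, next to PPFIA4 and MXI1, had log2 changes of -0.10 and -0.04 and did not pass (limma adjusted p = 0.180 and 0.547). TMEM183A passed under quantile normalization (-0.14).

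For 9 of the 10 genes, the gene most like it over the 6 libraries is given, found by the root mean square difference between log2(TPM + 1) profiles, each centred on its own mean. PPFIA4 was nearest to NR4A1, a nuclear receptor gene (difference 0.06), ANKRD37 to TCAF2 (0.11), VLDLR to IRAK2, a kinase of interleukin-1 signalling (0.03), and TMEM45A to SUN3 (0.05). ERO1A was nearest to STARD4, a sterol transport gene (0.02). MXI1 was nearest to YPEL2 (0.03), WSB1 to the transcription factor KLF6 (0.02), FAM162A to the protease CAPN1 (0.02) and CITED2 to ATP6V0D1, a subunit of the vacuolar ATPase (0.01). This measure rests on 6 libraries in 2 treatments, so it finds genes with a like difference between treatments.

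Marker levels were checked against the labelled line. Of the markers of MDA-MB-231, VIM, CD44, AXL and MSN were at 309.1 TPM or more in every library, while EPCAM, ESR1, GATA3, CDH1, FOXA1 and PGR were at 5.78 TPM or less. VIM, CD44 and MSN were higher with PDBAG1 and AXL was lower. The labels also name breast cancer tissue as the source, and 10 markers of other cell types in breast tissue were listed. Their summed level was 264 to 277 TPM with vehicle and 325 to 348 TPM with PDBAG1, almost all of it from CD68, a lysosomal protein gene that rose from 257 ± 6.55 to 318 ± 11.8 TPM (SD, n = 3 per treatment; log2 change 0.31, limma adjusted p = 5.50e-05). Without CD68 the sum was 13.1 to 13.8 TPM and 19.0 to 20.4 TPM, and PECAM1 rose within it from 3.94 ± 0.15 to 8.64 ± 0.68 TPM (SD, n = 3 per treatment; log2 change 0.96, limma adjusted p = 2.21e-06). The other 8 were at 4.92 TPM or less in every library. Of these LYZ, COL1A1 and ACTA2 could be tested and did not pass, PTPRC, COL3A1, VWF, ADIPOQ and KRT5 were too low to test, and KRT5 was listed at 0 in 3 libraries. The part of these levels in the rises of the 10 genes was not tested. In bulk RNA, a change in the share of cells cannot be told apart from a change of RNA per cell.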

How the data were processed

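MDA-MB-231 cells treated with vehicle or PDBAG1 gave 6 libraries, 3 per group, grouped by the titles and treatment labels. According to the methods and the submitters' processing notes, the authors had mRNA libraries sequenced on a BGISEQ platform and mapped clean reads with HISAT2 (2.0.4) to GRCh38. The notes also name Bowtie2 (2.2.5), RSEM (1.2.12) and the patch release GRCh38.p12, while the methods describe FPKM and a later patch release. The values the authors deposited are TPM per gene, rounded to 2 decimals. Depth is therefore unknown and no counting error could be given. Precision rests on 3 libraries per group.

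A gene was kept when 3 or more libraries reached a TPM of 1. The log2(TPM + 1) values were fitted with limma 3.58.1 under R 4.3.3, with variances moderated along a trend in mean level and Benjamini-Hochberg adjustment over the 12582 genes tested. An exact permutation test of 3 against 3 cannot give a two-sided p under 0.1 and was not used. The pipeline was tested on simulated data. The 10 genes and all gene lists were chosen with earlier results of these data known, so calls of the 10 genes are counted as a description and no p value is given for them. Named were the 10 genes, their paralogues, their nearest neighbours, the gene with the most similar profile, all markers, and up to 3 genes per list and direction with the largest change among called genes without overlap between groups. UFSP2 and WDR5B, which overlap members of the 10, were added after their values were seen. Positions are from GENCODE v44 (17212 of 17631 genes matched by Ensembl identifier) and promoter sequences from RefSeq (GRCh38.p14), matched by gene identifier. The same comparison was refitted without the filter, with a stricter filter, with a pseudocount of 0.1, with a replicate block, under median-of-ratios scaling, under quantile normalization, with a fold limit of 2 and without each library in turn. Values of a few genes that the rule would name are not reported here.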

Additional observations from a re-analysis of the deposited data

How the results depend on the processing

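The median log2 fold change of the 10 genes was 0.66 and ranged from 0.62 to 0.69 with each library left out in turn. It was 0.59 under quantile normalization, and none of the 10 genes changed direction under any alternative. Genes past both thresholds numbered 420, and 80 at a fold limit of 2. With a pseudocount of 0.1, 530 were higher and 100 lower, against 360 and 60. Under quantile normalization 287 were higher and 94 lower. The 8 lower relatives and partners became 5 with the replicate block, 4 to 7 with each library left out, 10 under median-of-ratios scaling and 11 under quantile normalization. Deviations of libraries with the same number correlated at -0.21, 0.01 and -0.08. No pairing by number was seen, though such values cannot tell whether these libraries were made together. With the block 9 of the 10 genes were called, without CITED2, and the calls of ELOC (adjusted p = 0.0561), GPX8 (adjusted p = 0.0546), HIF1A (adjusted p = 0.0645) and ATP6V0D1 (adjusted p = 0.104) were lost.
A few named genes near no change turned direction. Under median-of-ratios scaling these were AK1 (-0.0081) and IGFBP3 (-0.0113), and under quantile normalization AK5 (-5e-04), IGFBP3 (-0.0146), PPP1R3C (-0.0168), EPCAM (-0.0709) and LYZ (-0.0102). With each library left out, AK1 ranged from -0.035 to 0.10, ESR1 from -0.0214 to 0.26, EPCAM from -0.11 to 0.12 and LYZ from -0.0502 to 0.21. TPM keeps no depth, so no counting error can be set on the low genes.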
